A study of Homo sapiens with 49 samples.

Results

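Potassium channel genes (names beginning KCN), the voltage-gated calcium channel genes (CACNA, CACNB and CACNG) and the voltage-gated sodium channel genes (SCN followed by a number and A or B) were followed in 2 human neuroblastoma cell models. They were taken by name from the expression tables, antisense transcripts were left out, and 141 of 23621 genes and transcripts were found. Neuroblastoma is a childhood tumour of the sympathetic nervous system, and MYCN is the transcription factor whose gene is amplified in a high-risk subset of it. SHEP-21N cells carry MYCN under a promoter that doxycycline shuts off (TET-off); libraries were made at 0 h (2) and at 2, 4, 6, 8, 16 and 24 h (3 each) of doxycycline at 0.2 µg/ml. BE(2)-C cells, an established MYCN-amplified line, carried an inducible hairpin against TWIST1 (TET-on shTWIST1), a basic helix-loop-helix factor; libraries were made without doxycycline and at 3, 6, 12, 24 and 48 h of doxycycline at 0.5 µg/ml, 3 each. Every SHEP-21N library came from cells with the transgene and every BE(2)-C library from cells with the hairpin. No library held doxycycline without the change in MYCN or TWIST1, so effects of the drug and of the target cannot be told apart. The labels do not say whether libraries of a group came from separate cultures, so p-values measure the spread between these libraries, which may be technical.

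Ion channel genes set how a cell's membrane responds to voltage, calcium and ligands. Voltage-gated sodium and calcium channels let positive charge in and can fire an action potential, whereas potassium channels let it out and bring the membrane back to rest. A channel consists of a pore-forming subunit, often with auxiliary subunits that change its opening or its transport to the surface. Cells of the sympathetic lineage, from which neuroblastoma arises, are excitable, and potassium channels also take part in cell volume and division in cells that do not fire.

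Expression was given as FPKM, fragments per length of transcript and depth of sequencing, a value corrected for transcript length. Each model has an unnormalised table and one that the authors rescaled to spike-in RNA added at cell lysis after counting cells. The rescaled values are meant to carry the amount of RNA per cell, but may also hold errors of cell counts and spike-in amounts. Rescaled medians of tested genes ranged from 10.8 to 19.7 FPKM among the BE(2)-C libraries without doxycycline. Changes are log2 fold changes of FPKM + 1 on the spike-in rescaled scale unless the unnormalised scale is named, so the change of genes near 1 FPKM is understated. A gene rose or fell where limma's adjusted p was under 0.05. Where the libraries of compared groups are said not to overlap, the share of all genes so separated was not counted. Such statements describe the values and add no support to the calls. Both tables of a model hold the same libraries, so the unnormalised values are a second scale and not a second experiment. In these bulk samples, fewer cells of a type and less RNA per cell cannot be told apart.

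The targets followed their labels. MYCN had 17.3, 13.9 and 11.2 FPKM at 24 h, against 723 and 855 FPKM at 0 h, in SHEP-21N cells. TWIST1 had 7.65, 11.2 and 4.60 FPKM at 48 h, against 91.8, 70.3 and 82.0 FPKM without doxycycline, in BE(2)-C cells. Of 9 adrenergic neuroblastoma markers (HAND2, DBH, TH and others) 9 reached a mean of 1 unnormalised FPKM in BE(2)-C cells and 3 in SHEP-21N cells, and of 8 mesenchymal markers (VIM, FN1, PRRX1 and others) 3 did in BE(2)-C cells and 8 in SHEP-21N cells. Their summed unnormalised level moved in SHEP-21N cells: the adrenergic list had 42.6 to 45.4 FPKM at 24 h and 60.7 to 64.8 FPKM at 0 h, and the mesenchymal list 821 to 869 FPKM at 24 h and 739 to 778 FPKM at 0 h. In BE(2)-C cells the adrenergic list had 2716 to 2813 FPKM at 48 h and 2630 to 3526 FPKM without doxycycline, and the mesenchymal list 203 to 208 FPKM at 48 h and 208 to 283 FPKM without doxycycline. Lists of Schwann cell, epithelial, blood and muscle markers had at most 2 members at 1 FPKM, SOX10 was listed at 0 in BE(2)-C and CD3E in SHEP-21N cells, and their sums did not exceed 13.0 FPKM, apart from 38.5 FPKM for the blood list in 1 BE(2)-C library at 3 h. The muscle list (MYH7, TNNT2, ACTA1 and DES) had 4.64 to 5.91 FPKM at 24 h and 5.78 to 6.55 FPKM at 16 h, against 2.88 to 3.02 FPKM at 0 h, in SHEP-21N cells, without overlap, and 2.30 to 2.97 FPKM at 48 h, against 3.71 to 6.04 FPKM without doxycycline, in BE(2)-C cells. The part of these markers in the channel results was not tested.

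One control library in each model stood apart. On the unnormalised scale the BE(2)-C library without doxycycline numbered 1 lay below all other 17 libraries for 17 of 33 tested channel genes (51.5%) and above them for 7 (21.2%); over all tested genes these shares were 31.1% and 32.8%. The SHEP-21N 0 h library numbered 2 lay below all other 19 libraries for 2 of 21 tested channel genes and above them for 2, against 19.7% and 18.8% of all tested genes. The counts of channel genes called at the latest times are given with and without these control libraries. Leaving out either 0 h library in SHEP-21N cells leaves only 1, so a call can be lost through the smaller group alone. Whether a call was lost through the group's size or through the library cannot be told apart there. A library at 6 h in SHEP-21N cells, numbered 2, also stood apart. It lay below all other 19 libraries for 8 of 21 tested channel genes (38.1%) and above them for 1 (4.76%). Over all tested genes these shares were 12.3% and 15.8%. Libraries at 8 h shared index sequences with those at 0 h, 16 h with 2 h and 24 h with 4 h, and the labels name no sequencing pools. Libraries with the same index cannot be told apart in 1 pool, so those that share one were presumably pooled apart. The comparison of 8 h with 0 h may thus hold a difference between pools. Which other times were run together is unknown, and the part of a pool in the differences between times was not tested. The comparison of 24 h with 8 h is given beside those with 0 h.

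The promoters of 4 channel genes are printed, chosen after their values were seen: KCNMA1 and KCNK2 had the largest rise and fall in SHEP-21N cells, KCNT1 had the largest fall in BE(2)-C cells, and KCNN4 fell in SHEP-21N cells and has the E-box form that MYC proteins prefer. Each is the RefSeq window of GRCh38.p14, 300 bases that end 50 bases after the gene's start, and for KCNMA1 and KCNK2, which have 2 windows, the more upstream one. They lie on chr10:77637759-77638058 (minus strand), chr1:215005292-215005591 (plus), chr19:43780924-43781223 (minus) and chr9:135701935-135702234 (plus). Letters in capitals mark E-boxes, CANNTG, the short motif read by helix-loop-helix factors such as MYCN and TWIST1.
KCNMA1: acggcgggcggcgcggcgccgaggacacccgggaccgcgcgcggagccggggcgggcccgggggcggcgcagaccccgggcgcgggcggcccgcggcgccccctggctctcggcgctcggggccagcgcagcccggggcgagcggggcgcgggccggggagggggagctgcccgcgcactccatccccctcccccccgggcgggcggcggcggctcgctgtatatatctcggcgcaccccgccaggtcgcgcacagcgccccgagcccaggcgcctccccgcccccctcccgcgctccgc
KCNK2: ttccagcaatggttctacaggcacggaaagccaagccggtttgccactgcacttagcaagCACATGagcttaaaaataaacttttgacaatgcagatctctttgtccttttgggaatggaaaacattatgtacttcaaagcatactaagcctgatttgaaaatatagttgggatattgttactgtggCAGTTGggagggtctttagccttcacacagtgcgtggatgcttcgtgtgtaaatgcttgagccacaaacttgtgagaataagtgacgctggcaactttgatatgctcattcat
KCNN4: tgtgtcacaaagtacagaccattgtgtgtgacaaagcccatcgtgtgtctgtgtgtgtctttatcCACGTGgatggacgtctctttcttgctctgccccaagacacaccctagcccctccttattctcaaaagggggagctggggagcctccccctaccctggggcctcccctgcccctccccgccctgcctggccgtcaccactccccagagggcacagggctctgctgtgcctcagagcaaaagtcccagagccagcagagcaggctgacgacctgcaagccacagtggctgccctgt
KCNT1: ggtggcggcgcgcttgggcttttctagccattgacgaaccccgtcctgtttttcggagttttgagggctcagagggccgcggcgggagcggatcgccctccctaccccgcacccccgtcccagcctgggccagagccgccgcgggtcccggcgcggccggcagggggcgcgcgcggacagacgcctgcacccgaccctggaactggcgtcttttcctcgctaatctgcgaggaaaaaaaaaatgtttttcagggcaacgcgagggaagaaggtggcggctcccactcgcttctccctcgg

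The printed windows of KCNMA1 and KCNT1 held no E-box, though the other window of KCNMA1 did; that of KCNK2 held 2, and the 1 match of KCNN4 was CACGTG, the form that MYC proteins prefer. Both motifs read the same on both strands, and this form is one of the E-boxes. It was found in the windows of 2 of 14 tested SHEP-21N channel genes with a window (14.3%; KCNN4 and KCNAB2) and of 3 of 24 in BE(2)-C cells (12.5%; KCNAB1, KCNAB2 and KCNH4). Among all 27305 genes with a window the share was 8.77%. Counted by window, the shares were 7.41%, 9.09% and 7.26%. Any E-box was found for 71.4% and 70.8% of these channel genes and 73.1% of all genes. These are letters in a window of 300 bases, not sites, and their absence says nothing about binding elsewhere.

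Both models expressed a minority of the channel genes, and largely different ones. A mean of 1 unnormalised FPKM over all libraries, the level needed for a test, was reached by 33 of 141 in BE(2)-C cells and 21 in SHEP-21N cells. Of the 43 that reached it in either model, 11 did so in both, 22 in BE(2)-C cells alone and 10 in SHEP-21N cells alone; 98 stayed below it in both and 13 were listed at 0 in every library. Just inside the limit were SCN8A at 1.29 and SCN3A at 1.30 FPKM in BE(2)-C cells, and just outside it KCNK12 at 0.899 FPKM. In SHEP-21N cells KCNE4 at 1.10 and KCNJ14 at 1.17 FPKM were just inside and KCNC4 at 0.981 FPKM just outside. The tables of the models were normalised separately, so levels across models are set side by side with no test.

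**Figure D1:**
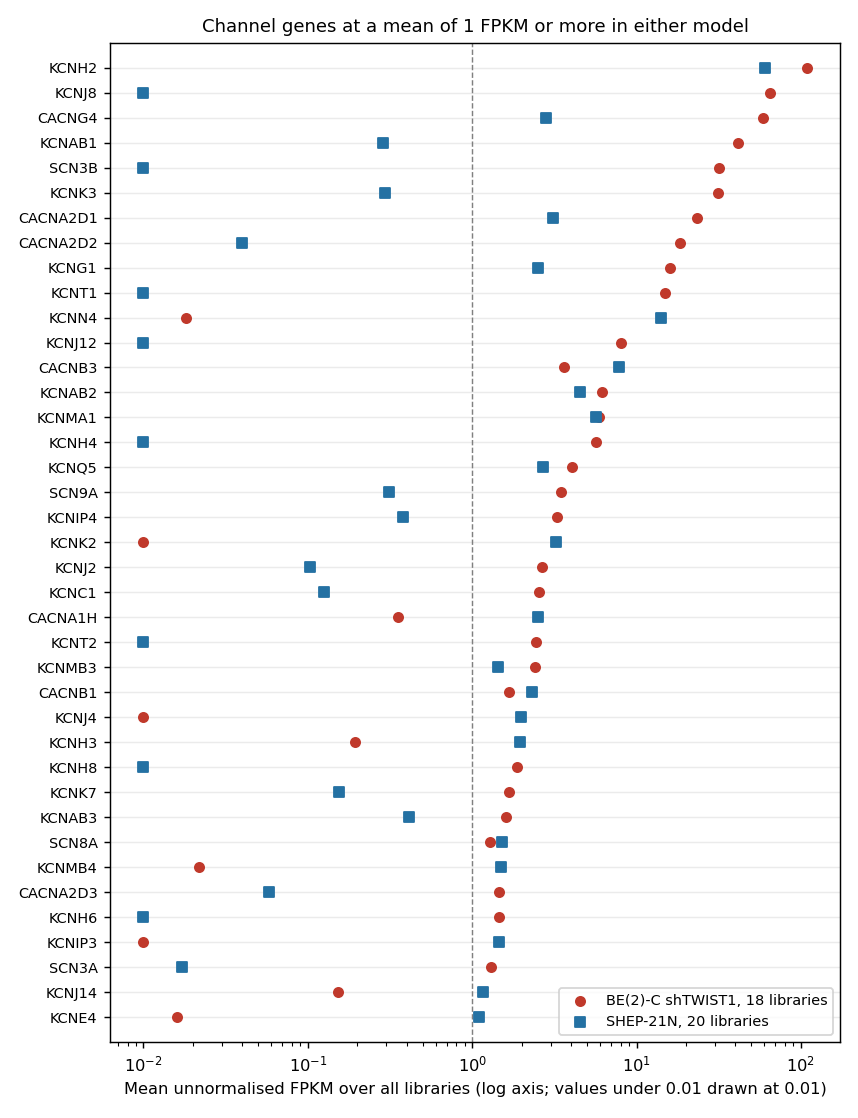
Mean unnormalised FPKM (log axis) of 39 of the 43 channel genes that reached 1 FPKM in either model, over 18 BE(2)-C libraries (circles) and 20 SHEP-21N libraries (squares); the dashed line marks 1 FPKM, and values under 0.01 are drawn at 0.01. KCNH2 is the highest in both models, at 109 and 60.8 FPKM, while KCNJ8, KCNT1 and KCNK3 stand out in BE(2)-C cells and KCNN4 and KCNK2 in SHEP-21N cells.

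KCNH2, the hERG channel whose current repolarises the heart and which many tumour cells express, was the highest channel gene in both models, with means of 109 FPKM in BE(2)-C and 60.8 FPKM in SHEP-21N cells. Among the 40 names of voltage-gated potassium pores, 9 in BE(2)-C and 4 in SHEP-21N cells reached 1 FPKM. BE(2)-C cells also expressed KCNH4 (5.70 FPKM), for which SHEP-21N cells had 0.00157 FPKM. KCNQ5, a pore of the neuronal M-current, which restrains repeated firing, was present in both, at 4.06 FPKM in BE(2)-C and 2.68 FPKM in SHEP-21N cells. KCNG1, a subunit that forms no channel alone and modifies others, had 16.0 FPKM in BE(2)-C and 2.50 FPKM in SHEP-21N cells. Of the cytoplasmic beta subunits of these pores, KCNAB1 had 41.4 FPKM in BE(2)-C and 0.285 FPKM in SHEP-21N cells, and KCNAB2 had 6.12 and 4.55 FPKM.

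The potassium channels opened by intracellular ions divided by model. KCNT1, a sodium-activated pore, had a mean of 14.9 FPKM in BE(2)-C cells and was listed at 0 in all 20 SHEP-21N libraries. KCNN4, the calcium-activated channel of intermediate conductance known from blood and epithelial cells, had 14.2 FPKM in SHEP-21N and 0.0182 FPKM in BE(2)-C cells. KCNMA1, the pore of the large-conductance channel opened by calcium and voltage, had 5.91 FPKM in BE(2)-C and 5.63 FPKM in SHEP-21N cells. Its auxiliary subunits differed: KCNMB3 had 2.42 FPKM in BE(2)-C and 1.45 FPKM in SHEP-21N cells, while KCNMB4 had 0.0217 FPKM in BE(2)-C cells and passed 1 FPKM in SHEP-21N cells.

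Channels that set the resting potential also differed widely in level between the models. KCNJ8, an inward rectifier pore of ATP-sensitive channels, was the second highest channel gene in BE(2)-C cells at 64.5 FPKM and had 0.00232 FPKM in SHEP-21N cells. KCNJ12, an inward rectifier of heart and muscle, had 7.99 and 0.00400 FPKM in BE(2)-C and SHEP-21N cells; its near-identical copy KCNJ18 makes this value uncertain. Among the tandem-pore background channels, the acid-sensitive KCNK3 had 31.5 FPKM in BE(2)-C and 0.296 FPKM in SHEP-21N cells, whereas the stretch-sensitive KCNK2 had 0.00143 FPKM in BE(2)-C and 3.22 FPKM in SHEP-21N cells. SHEP-21N cells alone had the inward rectifier KCNJ4 above the limit, at 1.99 FPKM, against 0.00496 FPKM in BE(2)-C cells.

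Calcium channels were represented mostly by auxiliary subunits, sodium channels by pores and beta subunits. Of 10 calcium channel pores, none reached 1 FPKM in BE(2)-C cells and 1 did in SHEP-21N cells, the low-voltage-activated CACNA1H at 2.53 FPKM. Of 16 auxiliary calcium channel genes, 6 did in BE(2)-C and 4 in SHEP-21N cells. CACNG4, which also escorts glutamate receptors, had 58.8 FPKM in BE(2)-C and 2.83 FPKM in SHEP-21N cells, and CACNA2D1, the subunit bound by gabapentin, had 23.3 and 3.10 FPKM. Its relative CACNA2D2 had 18.3 FPKM in BE(2)-C and 0.0398 FPKM in SHEP-21N cells. CACNB3, a cytoplasmic beta subunit, was higher in SHEP-21N cells, at 7.80 FPKM, than in BE(2)-C cells, at 3.62 FPKM. Among sodium channels BE(2)-C cells had among others the pores SCN9A (3.48 FPKM), SCN3A and SCN8A and the beta subunit SCN3B (31.9 FPKM), and SHEP-21N cells had the pore SCN8A (1.51 FPKM).

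After MYCN shutdown in SHEP-21N cells 0, 0, 4, 2, 2 and 10 of the 21 tested channel genes passed the test at 2, 4, 6, 8, 16 and 24 h; falls were called from 6 h and rises from 16 h. At 2 h and 4 h none of 21 passed limma's test; over all tested genes 0.0506% and 0.0843% were called, and of the channel genes 0 and 3 had an unadjusted p under 0.05. At 6 h 4 fell, while 7.54% of all genes fell: KCNK2 (-0.68 ± 0.16 SE, adjusted p = 0.016), KCNN4 (-0.77 ± 0.22, adjusted p = 0.038), CACNA1H (-0.52 ± 0.15, adjusted p = 0.040) and KCNQ5 (-0.42 ± 0.13, adjusted p = 0.046). No single library could be left out with all 4 calls kept; between 0 and 2 channel genes were then called. At 8 h KCNK2 (-0.89 ± 0.16, adjusted p = 0.0041) and KCNQ5 (-0.73 ± 0.13, adjusted p = 0.0041) fell, against 3.83% of all genes, and both calls were lost when 0 h library 2 was left out. At 16 h KCNMA1 rose (1.17 ± 0.21, adjusted p = 0.0034), against 5.13% of all genes that rose, and KCNK2 fell (-0.64 ± 0.16, adjusted p = 0.019), against 3.04%; both calls were lost when 0 h library 1 was left out, and that of KCNK2 also when the other was.

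By 24 h 2 channel genes had risen and 8 had fallen of 21 tested, while 6.16% of all genes rose and 32.4% fell. The median change of the channel genes was -0.22, beside -0.31 over all 11867 genes. The largest rise was in KCNMA1, the large-conductance potassium channel. It had 12.9, 12.4 and 8.30 FPKM at 24 h, against 2.98 and 3.85 FPKM at 0 h, a change of 1.45 ± 0.21 (adjusted p = 0.000195). All 3 libraries at 24 h lay above both at 0 h, and so did all at 16 h, at 6.86, 12.5 and 8.11 FPKM. Libraries from 2 h to 6 h lay between 3.02 and 4.56 FPKM. KCNMA1 was not called at 8 h, from where it changed by 1.02 to 24 h, beside 1.45 from 0 h. The sums of the muscle and of the mesenchymal marker list, in unnormalised FPKM, also lay above 0 h in every library at 16 h and 24 h. KCNE4, a small membrane protein that restrains voltage-gated potassium channels, had 2.52, 1.92 and 1.86 FPKM at 24 h, against 0.900 and 1.15 FPKM at 0 h (0.61 ± 0.15, adjusted p = 0.0054). Its unnormalised mean was 0.835 FPKM at 0 h and 1.10 FPKM over all libraries. It thus reached the limit for a test only through later libraries with higher values, so its entry and its rise are not independent. KCNMA1 and KCNE4 are also the 2 channel genes that rose between 8 h and 24 h: KCNMA1 by 1.02 ± 0.19 (adjusted p = 0.021) and KCNE4 by 0.61 ± 0.13 (adjusted p = 0.036), where 0.228% of all genes rose. None fell in that interval, against 1.33% of all genes. Both calls were lost when 24 h library 1, 8 h library 0 or 8 h library 1 was left out, and that of KCNE4 also when 24 h library 2 was.

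**Figure D2:**
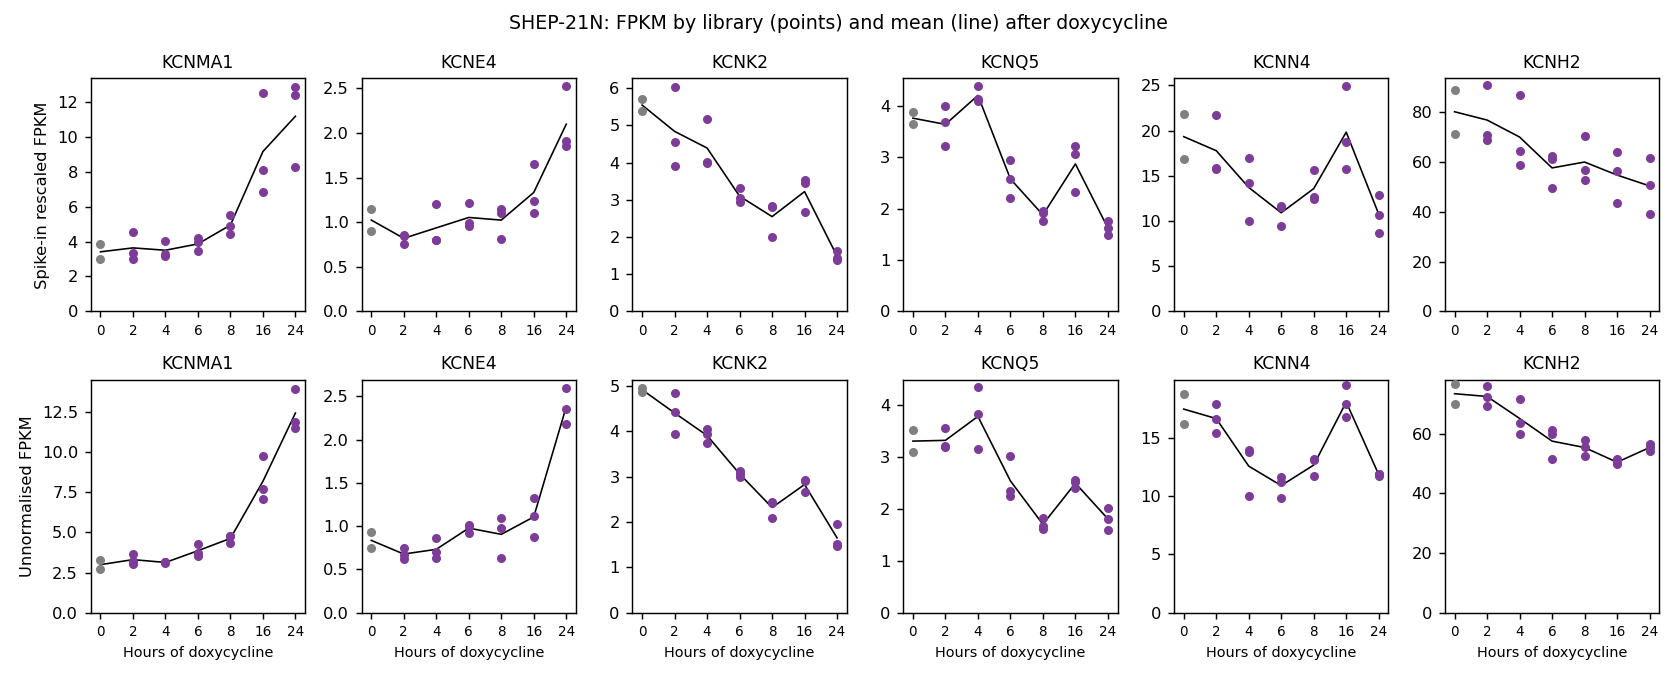
FPKM of 6 channel genes in every SHEP-21N library (points) with the mean (line) at 0 to 24 h of doxycycline, on the spike-in rescaled scale (top) and unnormalised (bottom); axes start at 0. KCNMA1 and KCNE4 rise to 8.30 to 12.9 and 1.86 to 2.52 rescaled FPKM at 24 h, and KCNK2 and KCNQ5 end at 1.38 to 1.64 and 1.48 to 1.77.

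The falls at 24 h were led by KCNK2 and KCNQ5, both potassium channels open near rest. KCNK2 had 1.64, 1.38 and 1.44 FPKM at 24 h, against 5.39 and 5.70 FPKM at 0 h (-1.40 ± 0.16, adjusted p = 2.8e-05). It had already reached 2.81, 2.83 and 2.00 FPKM at 8 h. KCNQ5 had 1.77, 1.63 and 1.48 FPKM at 24 h, against 3.88 and 3.65 FPKM at 0 h (-0.86 ± 0.13, adjusted p = 0.00024). For both genes every library at 24 h lay below both at 0 h, which adds no support, as they were picked by their calls.

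The other 6 falls at 24 h were smaller. KCNN4 had 12.9, 10.7 and 8.66 FPKM at 24 h, against 16.8 and 21.8 FPKM at 0 h (-0.79 ± 0.22, adjusted p = 0.012), but at 16 h, with 15.8, 24.9 and 18.7 FPKM, it overlapped 0 h. KCNH2 had 61.5, 50.6 and 38.9 FPKM at 24 h, against 71.3 and 88.9 FPKM at 0 h (-0.68 ± 0.23, adjusted p = 0.027). KCNIP3, a calcium-binding partner of voltage-gated potassium channels, fell by 0.77 ± 0.19 (adjusted p = 0.0058), KCNG1 by 0.59 ± 0.18 (adjusted p = 0.018), CACNG4 by 0.59 ± 0.19 (adjusted p = 0.021) and the beta subunit CACNB1 by 0.45 ± 0.15 (adjusted p = 0.025). In all 6 the libraries at 24 h lay below those at 0 h. They were picked by their calls, and the share of all genes with such a separation was not counted, so it adds no support. With 0 h library 2 left out none of these 6 passed, so that 2 rose and 2 fell, beside 1.48% and 5.90% of all genes. With 24 h library 2 left out 5 of them, all but KCNIP3, did not pass. KCNMA1, KCNE4, KCNK2 and KCNQ5 passed whichever of the 5 libraries was left out.

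On the unnormalised scale, where the median gene moved by -0.04 at 24 h, 7 channel genes were higher and 7 lower at 24 h, beside 28.9% and 36.4% of all genes. KCNMA1 (1.75, adjusted p = 5.7e-09 in limma) and KCNE4 were among the higher, and 7 of the 8 falls, all but CACNB1, were called lower there too. The other 5 called higher were CACNA2D1, CACNB3, KCNMB3, KCNMB4 and SCN8A. CACNB3 had 10.7, 10.0 and 10.1 unnormalised FPKM at 24 h, against 6.02 and 7.17 at 0 h (0.58, adjusted p = 0.00011); its rescaled change was 0.29 and did not pass. SCN8A, a sodium channel pore of the axon initial segment, had 1.77, 1.86 and 2.04 unnormalised FPKM at 24 h, against 1.07 and 0.928 at 0 h (0.53, adjusted p = 8.4e-05). With 0 h library 2 left out 6 channel genes were called up and 6 down on this scale, beside 20.6% and 29.6% of all genes; CACNA2D1 (0.48, adjusted p = 0.16) and KCNG1 (-0.23, adjusted p = 0.14) no longer passed. At earlier times this scale called 5, 14, 11 and 11 channel genes in either direction at 4, 6, 8 and 16 h, beside 33.9%, 56.7%, 54.2% and 51.2% of all genes, and 7 between 8 h and 24 h, beside 32.2%. With each rescaled library centred on its median the counts were 1, 11, 11 and 10, beside 27.1%, 51.2%, 47.2% and 47.1%, and 6 between 8 h and 24 h, beside 28.1%. At 24 h centring gave 7 higher and 7 lower, beside 29.6% and 32.2% of all genes, and 4 and 3 with 0 h library 2 left out, beside 19.9% and 23.1%.

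**Figure D3:**
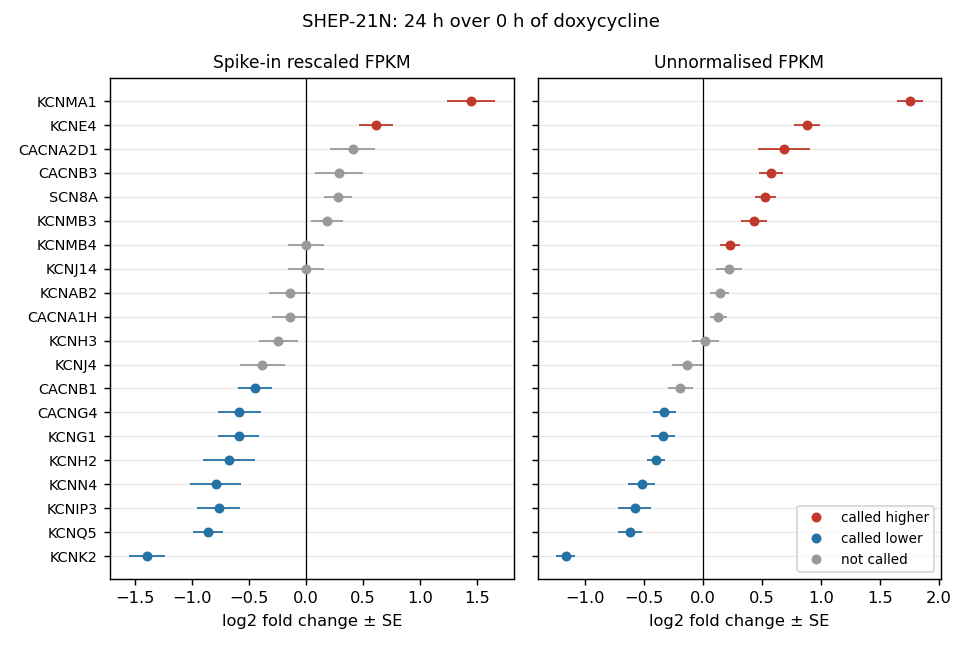
Log2 fold change (± SE) at 24 h over 0 h of doxycycline for 20 of the 21 tested channel genes in SHEP-21N cells, on the spike-in rescaled (left) and the unnormalised scale (right), with genes ordered by their unnormalised change. On the left 2 genes are called higher and 8 lower, and on the right 7 and 7; KCNMA1 and KCNK2 are the extremes on both.

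By class, beside 6.16% of all genes that rose and 32.4% that fell, 3 of the 4 tested voltage-gated potassium pores fell at 24 h, KCNH3 being the exception at -0.24. Of 2 channels opened by calcium, KCNMA1 rose and KCNN4 fell. The tandem-pore KCNK2 fell, and neither inward rectifier passed. Among 5 auxiliary potassium channel genes KCNE4 rose and KCNIP3 fell, and 2 of 4 auxiliary calcium channel genes fell. With 0 h library 2 left out only KCNQ5 of the pores opened by voltage, KCNMA1, KCNK2 and KCNE4 kept their calls, so that none of the auxiliary calcium channel genes passed. CACNA1H and SCN8A, the only tested calcium pore and sodium pore in this model, did not pass, with changes of -0.15 and 0.28. The 11 channel genes that did not pass ranged from -0.38 for KCNJ4 to 0.41 for CACNA2D1.

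In BE(2)-C cells with the TWIST1 hairpin no channel gene passed at 3, 6 or 12 h, where 0.0350%, 0.0350% and 0.0437% of all genes were called and 1 of 33 channel genes at each time had an unadjusted p under 0.05 in limma. At 24 h 1 fell, against 0.586% of all genes: KCNT1, the sodium-activated potassium channel, with 8.75, 10.4 and 8.25 FPKM at 24 h and 30.8, 19.3 and 27.4 FPKM without doxycycline (-1.39 ± 0.33, adjusted p = 0.034). All 3 libraries at 24 h lay below all 3 without doxycycline. This call was kept without the control library numbered 1 and lost when any of the other 5 libraries was left out. Rescaled values varied widely within a group, up to 22.9 to 38.6 FPKM for KCNT1 at 6 h, where the unnormalised values lay between 17.7 and 19.7 FPKM.

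At 48 h the spike-in scale was shifted as a whole: the median of all 11433 genes moved by -1.36 and 93.3% of genes fell. Of 33 channel genes 25 fell and none rose, beside 0.131% of all genes that rose, with a median of -0.97. A fall on this scale is therefore not particular to the channel genes, of which 25 lay above the median change of all genes and 8 below it. The added 1 FPKM holds back the falls of genes of low level. Positions relative to the other genes are given from the unnormalised table, whose median moved by 0.02. Unnormalised spike-in totals were 57913 to 140361 FPKM at 48 h and 21429 to 36863 FPKM without doxycycline. Rescaling brought these totals to 33930 to 34773 FPKM at 48 h and 34223 to 34728 FPKM without doxycycline. With this step the median tested gene at 48 h went from 12.1 to 12.2 FPKM down to 3.26 to 7.86 FPKM. Why the unnormalised totals were higher at 48 h was not tested.

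KCNT1 and KCNH2 fell the most on both scales. KCNT1 had 2.62, 3.84 and 1.80 FPKM at 48 h, against 30.8, 19.3 and 27.4 FPKM without doxycycline (-2.85 ± 0.33, adjusted p = 2.2e-07). In unnormalised FPKM it had 6.24, 5.84 and 6.63 at 48 h, against 19.6, 20.9 and 20.5 without doxycycline (-1.56 ± 0.05, adjusted p = 1.8e-11). The unnormalised decline was graded, with 15.4, 13.9 and 14.2 FPKM at 12 h (-0.46, adjusted p = 7.0e-05; the only channel gene called then, beside 4.08% of all genes) and 8.68, 8.69 and 8.65 FPKM at 24 h (-1.14, adjusted p = 8.7e-10). KCNH2 had 24.4, 38.2 and 15.5 FPKM at 48 h, against 201, 141 and 166 FPKM without doxycycline (-2.73 ± 0.36, adjusted p = 1.6e-06), and 61.8, 62.3 and 60.7 unnormalised FPKM against 127, 150 and 126 (-1.11, adjusted p = 1.8e-09). In both genes no library at 48 h reached any control library on either scale, but they were picked by their falls.

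**Figure D4:**
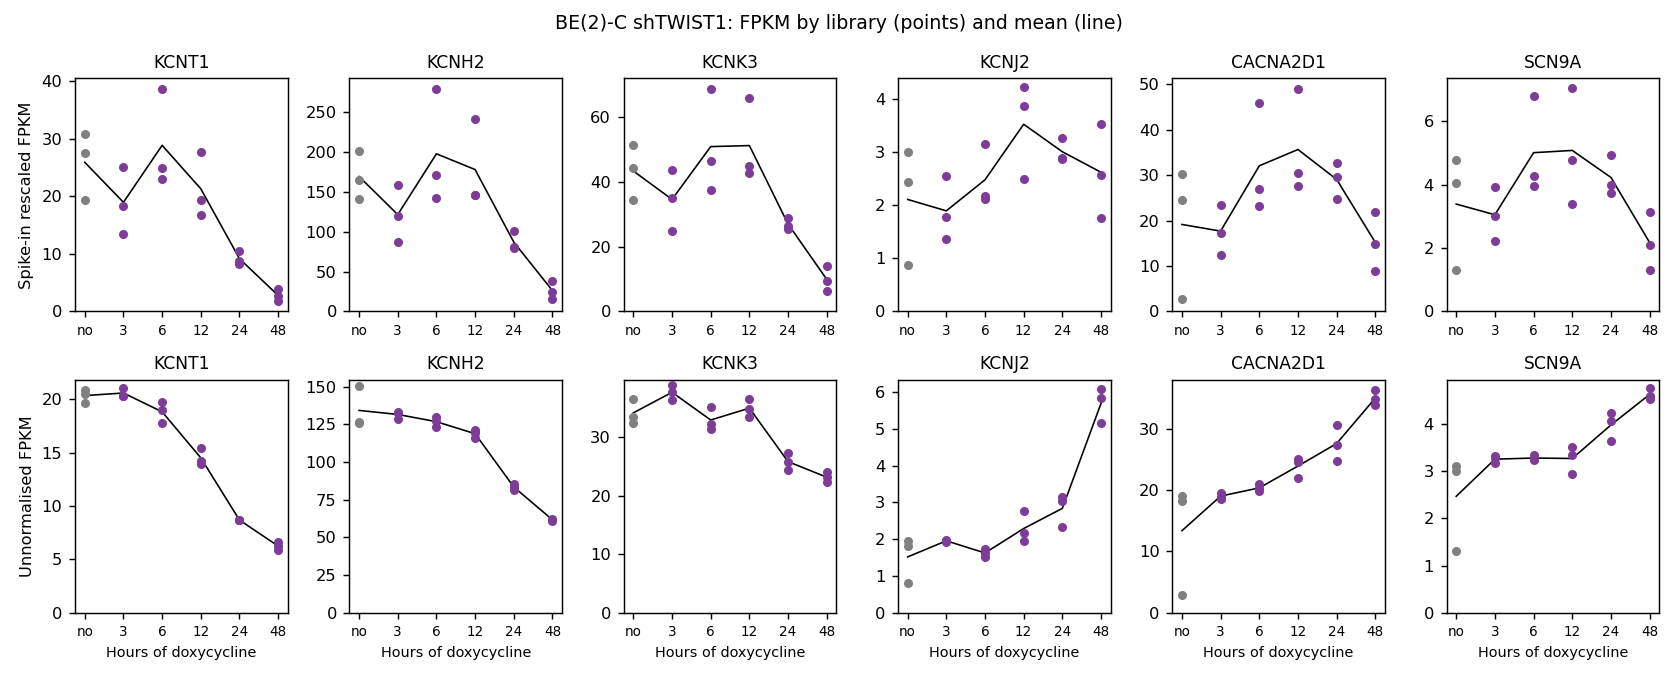
FPKM of 6 channel genes in every BE(2)-C library (points) with the mean (line) without doxycycline (no) and at 3 to 48 h, on the spike-in rescaled scale (top) and unnormalised (bottom); axes start at 0. KCNT1, KCNH2 and KCNK3 decline on both scales, while KCNJ2, CACNA2D1 and SCN9A are highest at 48 h on the unnormalised scale only; 1 library without doxycycline is low for the last 3.

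Altogether 9 channel genes fell at 48 h on both scales, and on the unnormalised scale 21.3% of all genes did. Besides KCNT1 and KCNH2 they were KCNK3 (-2.07 ± 0.34 rescaled and -0.54 unnormalised), KCNG1 (-1.95 ± 0.33 and -0.53), KCNC1, a pore of fast-firing neurons (-1.32 ± 0.29 and -0.49), KCNJ12 (-1.70 ± 0.32 and -0.42), the beta subunit KCNAB2 (-1.50 ± 0.31 and -0.31), CACNB1 (-1.03 ± 0.26 and -0.25) and CACNG4 (-1.78 ± 0.36 and -0.16). KCNK3 had 23.1, 22.4 and 24.0 unnormalised FPKM at 48 h, against 32.5, 36.6 and 33.5 without doxycycline. All 9 were also called lower in the unnormalised table without the control library numbered 1, where 28.3% of all genes were lower; 12 were higher there, beside 27.7%. At 24 h 7 were lower on that scale, beside 13.6% of all genes: KCNT1, KCNH2, KCNJ12, CACNB1, KCNK3, KCNC1 and KCNG1.

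No channel gene rose on the rescaled scale at 48 h, but 10 were higher on the unnormalised scale, beside 18.1% of all genes. They were CACNA2D1, KCNJ2, SCN9A, KCNT2, KCNH8, SCN3A, KCNJ8, KCNIP4, KCNAB3 and KCNMA1. SCN3A had an unnormalised mean of 0.991 FPKM without doxycycline and 1.30 FPKM over all libraries. It thus reached the limit for a test only through later libraries, so its entry and its rise are not independent. KCNJ2, an inward rectifier that holds the resting potential, had 5.85, 5.16 and 6.08 unnormalised FPKM at 48 h, against 1.94, 0.809 and 1.80 without doxycycline (1.44 ± 0.15, adjusted p = 2.8e-06); without the control library numbered 1 the change was 1.22. In rescaled FPKM it had 2.56, 3.53 and 1.76 at 48 h, against 3.00, 0.874 and 2.44, and did not pass (0.26 ± 0.29, adjusted p = 0.38). The groups overlapped on the rescaled and not on the unnormalised scale.

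With each rescaled library centred on its median the balance at 48 h was different again. On that scale 19 channel genes were higher and 6 lower, beside 30.6% and 21.9% of all genes, and their median was 0.45, beside 0.06 over all genes. The 6 lower were KCNT1, KCNH2, KCNK3, KCNG1, KCNJ12 and CACNG4. Without the control library numbered 1, 22 were higher and the same 6 lower, beside 37.6% and 23.4% of all genes; CACNB1, which was lower on the other scales, was then among the higher (0.52, adjusted p = 0.021). The 6 genes that were lower on all 3 scales are thus fewer than the 9 above. Centring adds 1 shift to every gene of a library, whereas the added 1 FPKM holds back the change of genes of low level.

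CACNA2D1 depended on 1 library. It had 36.4, 34.9 and 34.0 unnormalised FPKM at 48 h, against 19.1, 2.89 and 18.2 without doxycycline (1.66 ± 0.41, adjusted p = 0.0052). Without the library at 2.89, numbered 1, the change was 0.88 with adjusted p = 1.2e-07. On the rescaled scale its change was 0.09 with all libraries and -0.89 (adjusted p = 0.030) without that one. SCN9A, a sodium channel pore of sensory and sympathetic neurons, had 4.77, 4.60 and 4.53 unnormalised FPKM at 48 h, against 3.11, 1.30 and 3.00 without doxycycline (0.75 ± 0.15, adjusted p = 0.0014; 0.48 without library 1). On the rescaled scale without library 1, 28 channel genes fell, beside 96.0% of all genes: CACNA2D1, SCN9A and KCNT2 were among those that then passed, and KCNK7 did not.

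KCNJ8, the highest channel gene after KCNH2, showed the opposite sign on the 2 scales. In rescaled FPKM it had 30.9, 48.4 and 20.1 at 48 h, against 82.2, 59.5 and 67.8 without doxycycline (-1.13 ± 0.35, adjusted p = 0.0043). In unnormalised FPKM it had 78.0, 78.7 and 78.7 at 48 h, against 51.7, 62.8 and 51.4 without doxycycline (0.50, adjusted p = 1.0e-05). The groups did not overlap on either scale. At 24 h 7 channel genes were higher on the unnormalised scale, beside 9.55% of all genes, among them KCNJ8 (0.42), KCNJ2 (0.64), SCN9A (0.57) and KCNH8 (0.35); KCNAB1 and KCNIP4 were also among them but not without the control library numbered 1. With each rescaled library centred on its median 1 channel gene was called at 12 h and 12 at 24 h, beside 2.54% and 17.8% of all genes.

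**Figure D5:**
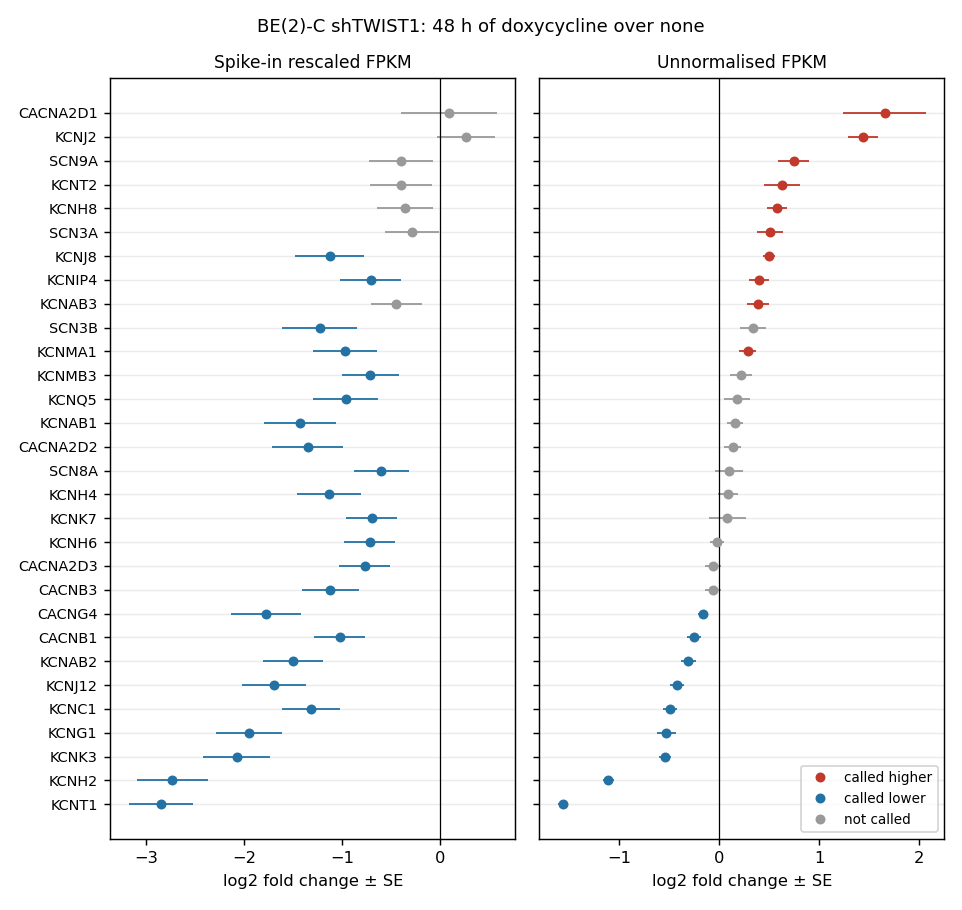
Log2 fold change (± SE) at 48 h of doxycycline over none for 30 of the 33 tested channel genes in BE(2)-C cells, on the spike-in rescaled (left) and the unnormalised scale (right), with genes ordered by their unnormalised change. On the left 23 are called lower and none higher; on the right 10 are called higher and 9 lower, with KCNT1 and KCNH2 lowest.

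By class on the unnormalised scale at 48 h, beside 18.1% of all genes that were higher and 21.3% that were lower, 3 of 9 voltage-gated potassium pores were lower (KCNH2, KCNG1 and KCNC1) and 1 higher (KCNH8). Of the channels opened by sodium or calcium KCNT1 was lower, and KCNT2 and KCNMA1 higher. Of 3 inward rectifiers KCNJ2 and KCNJ8 were higher and KCNJ12 lower. Of 4 sodium channel pores SCN9A and SCN3A were higher and none lower, but the call of SCN3A is not independent of its entry. Of 6 auxiliary calcium channel genes 1 was higher and 2 lower. The 14 channel genes that passed in neither direction ranged from -0.06 to 0.34; among them were KCNAB1 (0.16), the fourth highest by level, which changed by -1.43 ± 0.37 on the rescaled scale, and SCN3B (0.34), which changed by -1.23 ± 0.38 there. The unnormalised rise of KCNMA1 was small (0.28, adjusted p = 0.015), and its rescaled change was -0.97 (adjusted p = 0.0066).

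Among the 11 channel genes tested in both models, each was compared with its own control. KCNH2, KCNG1, CACNG4 and CACNB1 fell on the rescaled scale at the latest time in both models, as did KCNQ5, which fell by 0.86 at 24 h in SHEP-21N cells and by 0.96 at 48 h in BE(2)-C cells. On the unnormalised scale KCNH2 changed by -0.40 in SHEP-21N and -1.11 in BE(2)-C cells, KCNG1 by -0.34 and -0.53, and CACNG4 by -0.33 and -0.16, each past the test. On that scale 36.4% of all genes were lower in SHEP-21N and 21.3% in BE(2)-C cells. The SHEP-21N call of KCNG1 there was not kept with 0 h library 2 left out. KCNQ5 changed by -0.62 in SHEP-21N cells and by 0.18, not past the test, in BE(2)-C cells. With 93.3% of all genes lower in BE(2)-C cells on the rescaled scale, a fall in both models there is nearly set by the fall in SHEP-21N cells, where 32.4% of all genes fell, and of the 5 genes KCNQ5 alone kept that call with 0 h library 2 left out. The difference between models was not tested.

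Other genes of membrane excitability and ion handling, 78 in 6 lists, were read beside the channels. In SHEP-21N cells at 24 h 7 of 47 tested rose and 9 fell, beside 6.16% and 32.4% of all genes, with a median of -0.16, beside -0.31. Among channel partners ANK3, which anchors sodium channels at the axon initial segment, rose (0.96, adjusted p = 0.00091) and GEM, a small GTPase that inhibits calcium channels, fell (-0.79, adjusted p = 0.0041). Of the genes for calcium stores and pumps ATP2B4, a plasma membrane calcium pump, rose (1.28, adjusted p = 0.00012) and ORAI1, a store-operated calcium channel, fell (-1.01, adjusted p = 0.0016), while its relative ORAI3 rose (0.85, adjusted p = 0.0017). REST, the repressor of neuronal genes, rose (0.56, adjusted p = 0.015). With 0 h library 2 left out, 3 rose and 2 fell, beside 1.48% and 5.90% of all genes: ANK3, ATP2B4 and ORAI3 rose and TPCN1 and CLCN7 fell, while GEM (adjusted p = 0.082), ORAI1 (adjusted p = 0.0502) and REST (adjusted p = 0.15) no longer passed. In BE(2)-C cells at 48 h 46 of 52 tested fell and none rose, beside 93.3% of all genes that fell, with a median of -1.14, beside -1.36. On the unnormalised scale 14 were higher and 10 lower, beside 18.1% and 21.3%, with a median of 0.13; without the control library numbered 1 they were 17 and 14, beside 27.7% and 28.3%, with a median of -0.03. HCN2, a pacemaker channel opened by hyperpolarisation, was the lowest there (-1.14, adjusted p = 2.0e-08, unnormalised), and TPCN1, a channel of endosomes, followed (-0.88 unnormalised). TPCN1 also fell in SHEP-21N cells at 24 h (-1.09, adjusted p = 0.00022).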

How the data were processed

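RNA sequencing of polyadenylated RNA from 38 libraries, 20 of SHEP-21N and 18 of BE(2)-C shTWIST1 cells, was analysed; 11 further listed samples (BE(2)-C with DMSO or JQ1) are not analysed here. The submitters' processing notes name HISAT, Cufflinks 2.0.0 and the genome build hg19. For each model the authors deposited FPKM in an unnormalised table and in one rescaled to spike-ins; the labels do not state the method of rescaling. Entries listed at 0 stand at 0.0706 to 0.127 and 0.0377 to 0.201 FPKM in the rescaled tables. FPKM give no read number, so depth and counting error are unknown, and the spread between libraries stands in for both. Columns were matched to groups by name, and their numbers only tell libraries apart.

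Genes with a mean of at least 1 unnormalised FPKM in a model were tested, without the 92 spike-ins. A linear model with 1 mean per time was fitted to log2(FPKM + 1) of all libraries of a model in limma 3.58.1 (R 4.3.3; intensity trend, two-sided), and p was adjusted over all genes by Benjamini and Hochberg. The comparisons of a model share its control libraries. All members enter the counts and medians, but 4 of the tested ones are not reported here by name and not drawn. The model was tested on simulated data. Values were summarised with Python 3.11.15, numpy 2.4.6, pandas 2.3.3 and figures drawn with matplotlib 3.10.9. RefSeq promoter windows are of GRCh38.p14, another build than the files, and gave no match to coordinates in them.

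Genes were named by a rule: in each model the 8 highest, up to 8 largest rises and falls at the latest time, 5 of each after centring each library on its median, the 3 smallest adjusted p at earlier times, and up to 10 with a level at least 5 times apart between models; other genes named as members of a count were chosen after their values were seen. The channel genes, the lists and the tests were chosen with earlier results of these data known. Alternatives covered the unnormalised table, centring, the pseudocount, the filter, the intensity trend, the libraries fitted, a replicate block and leaving out each library.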

Additional observations from a re-analysis of the deposited data

How the results depend on the processing

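FPKM near 1 and 2 or 3 libraries a group limit what these data can show. In SHEP-21N cells the counts called were 0, 4, 2, 2 and 10 of 21 at 4, 6, 8, 16 and 24 h, and 2 at 24 h against 8 h; in BE(2)-C cells they were 0, 1 and 25 of 33 at 12, 24 and 48 h. In the unnormalised table they were 5, 14, 11 and 11 at 4 to 16 h and 7 at 24 h against 8 h in SHEP-21N, and 1 and 14 at 12 and 24 h in BE(2)-C cells. With each library centred on its median they were 1, 11, 11, 10 and 6, and 1 and 12. Without the filter they were 5, 6, 21 and 4 at 8, 16 and 24 h and at 24 h against 8 h, and 0 and 75 at 24 and 48 h, over more genes. With the filter 93.3% of all genes fell at 48 h in BE(2)-C cells, so the 75 is not particular to channel genes. Entries listed at 0 stand above 0 on the rescaled scale, and more of them enter without the filter. With a filter at 5 FPKM they were 1, 0, 1, 3 and 1 from 6 h on in SHEP-21N, and 1 and 14 at 12 and 48 h in BE(2)-C cells, over fewer genes. With only the groups compared, 7 and 6 were called at 6 and 8 h. Shares of all genes are not given for other filters, for only these groups, or for each library left out in turn. Such counts show no result particular to the channel genes. Leaving out 1 library of the 2 groups in turn gave 0 to 2 at 6 h, 0 to 2 at 8 h, 0 to 4 at 16 h, 4 to 10 at 24 h and 0 to 4 at 24 h against 8 h, and 0 to 1 and 18 to 28 at 24 and 48 h in BE(2)-C cells.

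Leaving out the control library that stands apart was chosen after seeing the data. In the unnormalised table this gave 10, 8 and 7 at 6, 8 and 16 h in SHEP-21N cells (30.8%, 30.1% and 32.0% of all genes) and 1, 5 and 15 at 6, 12 and 24 h in BE(2)-C cells (1.01%, 17.2% and 44.7%); after centring it gave 5 and 5 at 8 and 16 h (23.0% and 25.8%), and 3 and 14 at 12 and 24 h (9.07% and 34.5%). A replicate block on the column numbers, which nothing shows to pair libraries, gave 1 at 6 h and 1 at 24 h against 8 h, and 0, 0, 2, 2 and 10 at 2, 4, 8, 16 and 24 h in SHEP-21N cells. In BE(2)-C cells it gave 0, 0, 0, 1 and 26. Shares of all genes are not given for this block.

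At 48 h in BE(2)-C cells these values turned sign. In the unnormalised table KCNJ8 was 0.50, KCNAB1 0.16, SCN3B 0.34, CACNA2D2 0.14, SCN3A 0.51, KCNH8 0.58 and SCN9A 0.75, and without control library 1 they were 0.60, 0.0501, 0.10, 0.01, 0.30, 0.45 and 0.48. After centring KCNJ8 was 0.29, SCN3B 0.19, CACNA2D2 0.0686, SCN3A 1.13, KCNH8 1.06 and SCN9A 1.02, and without control library 1 KCNJ8 was 0.42, KCNAB2 0.0351, SCN3A 1.08, KCNH8 1.07 and SCN9A 0.85. CACNA2D1 was -0.89 without that library and -0.89 to 0.64 over the libraries left out. The scale of the values differs by construction, and other causes were not tested.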
